A study of Mus musculus with 2 samples.

Results

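The genes described here are 8 scavenger receptors, out of 24417 genes counted in mouse lung: Marco, Msr1, Cd36, Scarb1, Scarb2, Cd163, Stab1 and Mertk. They were taken by name, and all 8 were present in both count tables of the study. The study profiled single cells of whole lung from C57BL/6 mice that received silica particles into the trachea at 400 mg/kg. The mice were either CCR2-/-, that is, without the chemokine receptor gene Ccr2 (CCR2KO below), or wild type (WT), and both genotypes received silica, so no comparison here is with unexposed lung. Lungs were taken on days 3, 7 and 21. A hashtag antibody marked the cells of every suspension before those of 1 genotype were pooled on 1 cartridge, giving 8 tagged suspensions (tags) in the CCR2KO library and 9 in the WT library. The sources used here do not say which tag stands for which day or for which animal. The labels name no cell-restricted driver for the loss of Ccr2. With 1 library per genotype, genotype and cartridge cannot be told apart, and a p-value below measures the spread between tags only.

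Scavenger receptors are surface or lysosomal proteins that bind modified lipoproteins, particles, dying cells and other debris, and hand them to endocytosis. Macrophages are their best known users, and in the lung the alveolar macrophage meets inhaled particles first. MARCO and MSR1 are trimeric receptors that bind polyanionic surfaces, silica among them. CD36 and SCARB1 are related membrane receptors: CD36 takes up oxidised lipoprotein and long-chain fatty acids, and SCARB1 takes cholesterol from high-density lipoprotein. SCARB2, of the same family, sits in the lysosomal membrane and carries the enzyme glucocerebrosidase there. CD163 takes up complexes of haemoglobin and haptoglobin, STAB1 clears extracellular matrix proteins and modified lipoprotein, and MERTK is a receptor tyrosine kinase with which macrophages engulf dying cells.

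In GRCm38.p6, Marco lies on chromosome 1 (120474538 to 120505024, minus strand), Msr1 on chromosome 8 (39543232 to 39642750, minus strand) and Cd36 on chromosome 5 (17781690 to 17888959, minus strand). Scarb1 and Scarb2 are also on the minus strand of chromosome 5, at 125277087 to 125341094 and at 92441311 to 92505657. Cd163 is on the plus strand of chromosome 6 (124304636 to 124330529), Stab1 on the minus strand of chromosome 14 (31139017 to 31168651) and Mertk on the plus strand of chromosome 2 (128698915 to 128803162). Exons of Stab1 overlap exons of Nt5dc2 on the opposite strand, and the counting rule is not given in the sources used here, so reads of the shared stretch may come from either gene. The promoter windows of Marco and Cd36 are shown because the genotype differences described first below are in these 2 receptors. Each holds the 250 bases before and the 50 bases after the annotated start, from RefSeq, 5′ to 3′ on the strand of the gene. The Marco window is chr1:120504975-120505274, and the Cd36 window is chr5:17835847-17836146, inside the annotated span of the gene. Capitals mark GAGGAA (the core recognised by the macrophage factor PU.1) in Marco, and in Cd36 TGACCT, which is the half-site AGGTCA of nuclear receptors read on the other strand.
Marco promoter: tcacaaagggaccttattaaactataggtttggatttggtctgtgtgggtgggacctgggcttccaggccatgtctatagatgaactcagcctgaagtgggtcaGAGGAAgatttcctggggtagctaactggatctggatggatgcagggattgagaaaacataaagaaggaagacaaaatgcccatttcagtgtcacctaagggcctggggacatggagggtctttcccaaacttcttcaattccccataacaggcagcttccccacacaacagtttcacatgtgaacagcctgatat
Cd36 promoter: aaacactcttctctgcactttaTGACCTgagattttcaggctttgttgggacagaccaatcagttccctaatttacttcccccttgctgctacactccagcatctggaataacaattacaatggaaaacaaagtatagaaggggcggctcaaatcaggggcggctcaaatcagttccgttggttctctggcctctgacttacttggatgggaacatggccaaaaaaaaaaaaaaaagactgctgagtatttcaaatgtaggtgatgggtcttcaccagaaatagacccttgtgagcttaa
Both motifs and the AP-1 site TGANTCA were searched on both strands of the 6 receptors with a window in the table. GAGGAA was found in Marco and Stab1, AGGTCA in Cd36, and TGANTCA in none of the 6. Of 32851 promoter windows of the same length, 28.3% held GAGGAA, 16.3% held AGGTCA and 7.81% held TGANTCA, so a match is a common event and is given as a description only.

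After filters 14882 cells of CCR2KO lung and 16857 of WT lung were kept, with a median of 22653 and 25691 reads a cell and 923 and 1190 detected genes. A tag summed to between 56541715 and 88359317 reads in CCR2KO and between 63327246 and 94948946 in WT. Levels are CPM (reads of a gene as a share of the summed reads of a tag, on the usual CPM scale). Ccr2 itself averaged 2.72 ± 1.13 CPM in CCR2KO tags (SD, n = 8) and 75.8 ± 18.0 CPM in WT tags (SD, n = 9), in the direction of the labels (log2 change -4.80, edgeR adjusted p = 3.56e-10). Monocytes made up 1.33% of the cells of a CCR2KO tag on average, against 7.06% in WT, scar-type macrophages (marked by Gpnmb, Spp1 and Mmp12) 1.02% against 5.17%, interstitial macrophages 1.91% against 3.42% and alveolar macrophages 4.74% against 4.96%. The libraries shared 318 cell numbers.

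The 8 receptors divided the lung between them, as the plot of receptor level by class shows. Classes were built from the same cells, with the 8 receptors left out of the clustering, so differences between classes are described and not tested. Marco was almost wholly a transcript of alveolar macrophages, which held 96.8% of its reads in CCR2KO and 97.6% in WT, at 1792 ± 591 CPM in CCR2KO tags and 906 ± 429 CPM in WT tags (SD, n = 8 and 9). Its next class means were 163 CPM in scar-type macrophages of CCR2KO and 11.5 CPM in the class of T or innate lymphoid cells of WT. Msr1 was shared by the macrophage and monocyte classes, and its order changed with genotype.

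In CCR2KO, Msr1 averaged 607 ± 121 CPM in interstitial macrophages, 433 ± 174 in alveolar macrophages, 257 ± 157 in monocytes and 237 ± 65.0 in scar-type macrophages. In WT it averaged 485 ± 122 CPM in interstitial macrophages, 473 ± 164 in scar-type macrophages, 368 ± 124 in monocytes and 295 ± 137 in alveolar macrophages, and neighbours in this order overlapped in their spread. Alveolar macrophages held 65.0% of the Msr1 reads in CCR2KO and 27.5% in WT, while monocytes held 2.1% in CCR2KO and 16.5% in WT, and scar-type macrophages 4.01% in CCR2KO and 25.4% in WT.

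**Figure D1:**
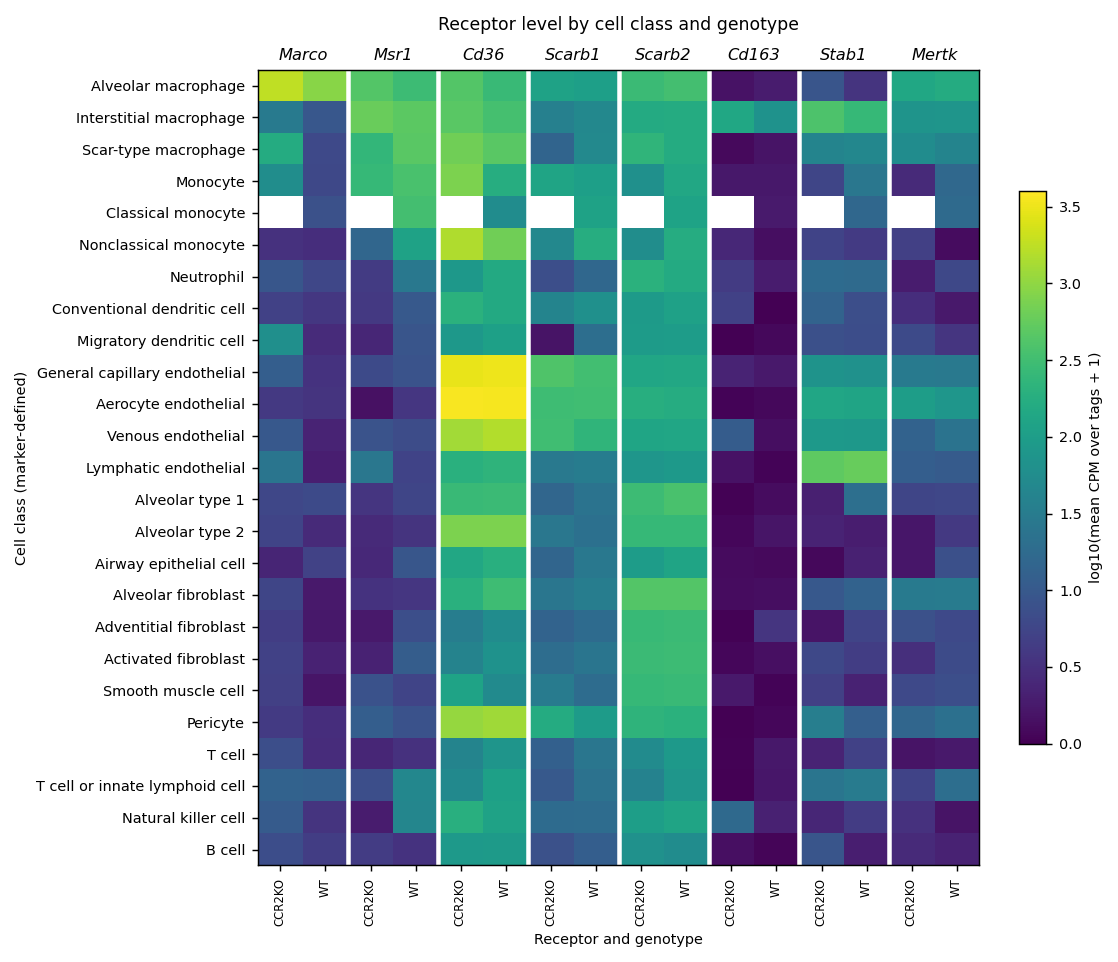
Mean level of each receptor over tags (log10 of CPM + 1, colour) by cell class (down) and by receptor and genotype (across); white cells had fewer than 3 tags with at least 10 cells. Marco, Msr1 and Cd163 are bright in macrophage classes, Cd36 and Scarb1 in endothelium, Stab1 in interstitial macrophages and lymphatic endothelium, and Scarb2 in nearly every class.

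Cd36 was chiefly an endothelial transcript. It averaged 3669 ± 593 CPM in aerocytes (the capillary cells of gas exchange) of CCR2KO and 3550 ± 325 in those of WT, and 3043 ± 459 and 3204 ± 247 CPM in general capillary cells. Outside the immune cells venous endothelium, pericytes and alveolar type 2 cells followed, with 1275 ± 296, 1084 ± 480 and 766 ± 134 CPM in CCR2KO and 1539 ± 325, 1227 ± 635 and 769 ± 143 CPM in WT. Among immune cells nonclassical monocytes, the patrolling kind, were highest, at 1470 ± 489 CPM in CCR2KO (n = 5) and 651 ± 297 CPM in WT (n = 8). After each cell was thinned to 5000 reads, 90.9% of CCR2KO aerocytes and 92.6% of WT aerocytes held a Cd36 read, against 6.67% of CCR2KO and 9.36% of WT B cells, which serve here as the background. Whether the Cd36 reads of B cells are stray or their own was not tested.

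Scarb1 followed the same vessels. General capillary cells had 411 ± 100 CPM in CCR2KO and 322 ± 41.9 CPM in WT, aerocytes 302.7 ± 91.0 and 315 ± 76.8 CPM, and venous endothelium a median of 313 CPM in CCR2KO (182 to 399.5) and 207 CPM in WT (135 to 339), so that the 3 endothelial classes overlapped. Among macrophage classes alveolar macrophages were highest, with 119 ± 35.2 CPM in CCR2KO and 107 ± 44.3 CPM in WT. Scarb2 was spread over nearly every class. It was highest in alveolar fibroblasts, at 426 ± 46.4 CPM in CCR2KO and 428 ± 61.0 CPM in WT, and stood at 286 ± 31.9 and 333 ± 42.6 CPM in alveolar macrophages and at 259 ± 31.1 and 259 ± 36.5 CPM in alveolar type 2 cells.

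The other 3 receptors were found in macrophages, and Stab1 and Mertk in endothelium as well. Cd163 was rare, and 85.6% of its reads in CCR2KO and 86.1% in WT lay in interstitial macrophages, where 15.1% of thinned CCR2KO cells and 7.20% of WT cells held a read, against 0.178% and 0.167% of B cells. Stab1 peaked in lymphatic endothelium, at 503 ± 251 CPM in CCR2KO and 576 ± 247 CPM in WT (n = 8 each), and in interstitial macrophages, at 388 ± 133 and 255 ± 123 CPM. It was present at lower levels in aerocytes and in venous and general capillary endothelium. Mertk was highest in alveolar macrophages, which held 59.9% of its reads in CCR2KO and 50.5% in WT, at 140 ± 48.8 and 163 ± 46.6 CPM, followed by aerocytes at 101 ± 42.9 and 77.6 ± 29.8 CPM. An alveolar macrophage expressed more of the 8 together than any other macrophage class or monocyte: a mean of 2.67 receptors had a read in a thinned CCR2KO cell and 2.39 in a WT cell, against 2.06 and 1.76 in interstitial macrophages, 1.07 and 1.35 in scar-type macrophages, 0.68 and 0.80 in monocytes, and 0.14 and 0.17 in B cells.

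Genes with the most similar pattern over 47 class and genotype points were sought among 9170 genes with at least 50 CPM in some class. Pearson's r of log2(CPM + 1) was 0.91 between Msr1 and Trem2, a lipid receptor of macrophages, and 0.88 between Msr1 and both Fcgr1 and Ccl9. Marco was most like Pparg, a lipid-sensing nuclear receptor of alveolar macrophages (r = 0.76), then Lilra5 and Siglec1. Cd163 was most like Cd209f (r = 0.86), Folr2 and Fcna. Among the 8 themselves, Cd36 and Scarb1 were most alike (r = 0.79), then Marco and Msr1 (r = 0.59). Cd36 was most like Dram2 and Flt1, Scarb1 like Ehd4, Cd93 and Adam15, Stab1 like Snx3, Tal1 and Elk3, Scarb2 like Chpt1, Rab3d and Sort1, and Mertk like Vat1, Rab1a and Lpl. The points share libraries and classes, and no test was made.

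The first genotype comparison asked whether the lung as a whole held more or less of each receptor without Ccr2. Marco rose and the other 7 did not pass the test. Marco had between 92.5 and 467 CPM in CCR2KO tags (median 201) and between 47.1 and 266 CPM in WT tags (median 87.2), after TMM scaling, the scale of every tested genotype comparison that follows. Summed marker levels and the level in classical monocytes, given below without a test, are CPM without TMM scaling. Every CCR2KO tag lay above the WT median, and 1 WT tag of 9 lay above the CCR2KO median. The means were 239 ± 120 CPM in CCR2KO (SD, n = 8) and 107 ± 62.8 CPM in WT (SD, n = 9), a log2 change of 1.16 (SE 0.31, edgeR quasi-likelihood test with Benjamini-Hochberg adjustment over 19198 genes, adjusted p = 0.0207). In that comparison 5.02% of all genes were called higher and 6.47% lower, so 1 of 8 receptors is close to the background of 11.5%. Without the fifth CCR2KO tag, the highest, the log2 change of Marco was 0.95 and the adjusted p 0.0516. In sums over all cells, a change in the number of cells of a type and a change in RNA per cell cannot be told apart.

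Msr1 had between 51.2 and 127 CPM in CCR2KO tags (median 84.3) and between 86.9 and 144 CPM in WT tags (median 116). Its log2 change was -0.39 (SE 0.16, edgeR adjusted p = 0.122), and 5 CCR2KO tags lay below every WT tag. Stab1 averaged 34.8 ± 9.76 CPM in CCR2KO and 43.3 ± 5.94 CPM in WT (log2 change -0.31, edgeR adjusted p = 0.171), and Mertk 31.1 ± 7.28 and 39.6 ± 11.6 CPM (log2 change -0.35, edgeR adjusted p = 0.241). With the block of tag numbers (1 to 3, 4 to 6, 7 to 9) as a term in the model, a setting chosen after the data were seen, Msr1 (log2 change -0.45, adjusted p = 0.0141), Stab1 (-0.35, 0.0298) and Mertk (-0.41, 0.015) were also called lower by edgeR. Cd36 averaged 592 ± 107 CPM in CCR2KO and 678 ± 86.6 CPM in WT, Scarb1 74.9 ± 12.4 and 82.5 ± 7.58, Scarb2 233 ± 16.9 and 223 ± 15.3, and Cd163 5.41 ± 3.14 and 4.23 ± 2.23, with edgeR adjusted p between 0.233 and 0.628.

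Within classes the comparison asked whether cells of 1 kind held more or less of a receptor. Of 184 pairs of a receptor and a class, 100 passed the filter on low counts, in 23 classes, and 2 of the 100 were called, Cd36 in monocytes and Msr1 in activated fibroblasts. Over the same 23 classes 0.359% of all gene tests were called.

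Cd36 in monocytes was higher in CCR2KO. It had between 454 and 1183 CPM in the 8 CCR2KO tags (median 692) and between 59.1 and 402 CPM in the 9 WT tags (median 133). Every CCR2KO tag lay above every WT tag. The means were 748 ± 261 CPM in CCR2KO (SD, n = 8) and 185 ± 108 CPM in WT (SD, n = 9), a log2 change of 2.01 (SE 0.32, edgeR adjusted p = 0.00104), in a class where 0.347% of 8075 genes were called higher. With the WT cells drawn down to the number of CCR2KO cells, the log2 change was 1.97 and the adjusted p 0.0807.

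The make-up of the monocyte class moved with this result. Nonclassical monocytes were 52.0% of CCR2KO monocytes and 21.6% of WT monocytes, and classical monocytes, the kind recruited from blood in inflammation, were 15.2% of CCR2KO and 44.3% of WT monocytes. The summed level of 11 nonclassical markers was between 3783 and 8715 CPM in CCR2KO monocytes and between 1340 and 2941 CPM in WT monocytes, and that of 11 classical markers between 5568 and 13525 CPM in CCR2KO and between 11487 and 16581 CPM in WT. Within nonclassical monocytes alone, Cd36 had between 720 and 1813 CPM in 5 CCR2KO tags (median 1761) and between 368 and 1407 CPM in 8 WT tags (median 673). Every CCR2KO tag lay above the WT median and 3 of 5 lay above every WT tag, but the log2 change of 1.02 (SE 0.31) did not pass the edgeR test (adjusted p = 0.198). With the tag block as a term it was 1.32 (adjusted p = 0.0367). Classical monocytes of CCR2KO, 30 cells in all, were too few to test, and in WT they had 55.5 CPM of Cd36.

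**Figure D2:**
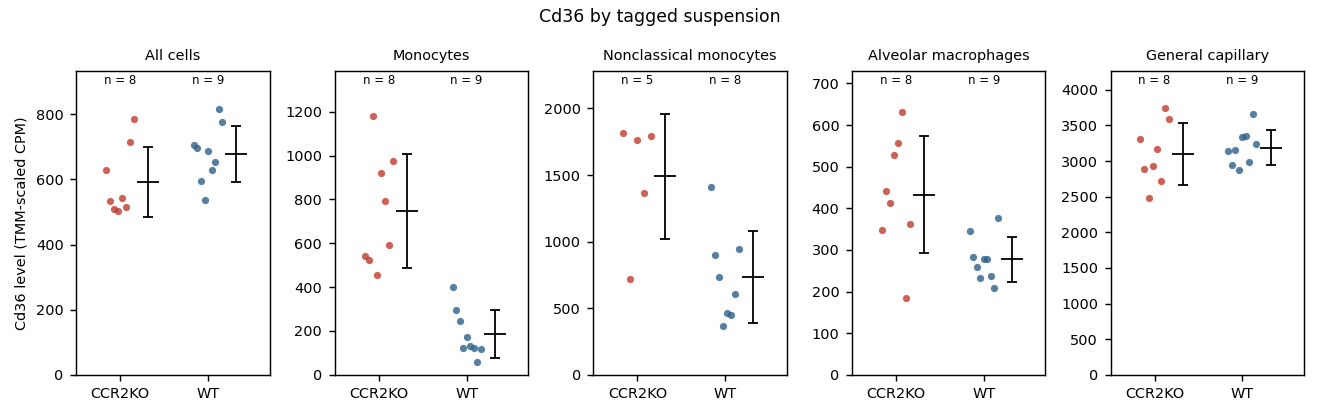
Cd36 level (TMM-scaled CPM) in each tag, CCR2KO left and WT right, in all cells and in 4 classes; each point is 1 tag, the bar to its right is the mean with its SD. In monocytes every CCR2KO tag lies above every WT tag, while in general capillary endothelium the means are 3103 CPM in CCR2KO and 3189 CPM in WT.

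In general capillary cells Cd36 averaged 3103 ± 435 CPM in CCR2KO and 3189 ± 245 CPM in WT (log2 change -0.04, edgeR adjusted p = 0.965), and in alveolar type 2 cells the log2 change was -0.03 (edgeR adjusted p = 0.996). Alveolar macrophages had between 185 and 630 CPM of Cd36 in CCR2KO tags (median 427) and between 209 and 377 CPM in WT tags (median 277), and 5 of 8 CCR2KO tags lay above every WT tag. The log2 change of 0.64 (SE 0.18) did not pass the edgeR test (adjusted p = 0.160) and passed with DESeq2 (adjusted p = 0.0413). The change of Cd36 differed between monocytes and alveolar macrophages: alveolar macrophages minus monocytes gave -1.48 on the log2 scale (SE 0.35, edgeR interaction test, adjusted p = 0.0191), in a test that called 4.90% of 11670 genes. It missed the threshold without the seventh CCR2KO tag (adjusted p = 0.0546) and with equal cell numbers (adjusted p = 0.419).

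Marco in alveolar macrophages had between 936 and 2535 CPM in CCR2KO tags (median 1684) and between 428 and 1767 CPM in WT tags (median 748). All 8 CCR2KO tags lay above the WT median and 4 lay above every WT tag. The means were 1798 ± 592 CPM in CCR2KO (SD, n = 8) and 905 ± 413 CPM in WT (SD, n = 9), a log2 change of 0.99 (SE 0.24) that did not pass the edgeR test (adjusted p = 0.0804, where 0.116% of 11237 genes were called higher). It passed with DESeq2 (adjusted p = 0.0148), with genes of at least 100 CPM alone (0.0213) and with the tag block as a term (log2 change 1.11, adjusted p = 0.00185). After thinning, 69.7% of CCR2KO alveolar macrophages and 52.5% of WT alveolar macrophages held a Marco read, against 0.978% of CCR2KO and 0.501% of WT B cells.

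With cells pooled over tags, the make-up of the alveolar macrophages also differed, but the ranges over tags overlapped and no test was made. Subcluster 0, led by Areg and Il1b, was 21.9% of CCR2KO cells and 49.7% of WT cells. In single tags it was 2.8 to 44.4% in CCR2KO and 5.0 to 68.9% in WT. Subcluster 2, led by C1q genes and Arg1, was 15.6% of CCR2KO cells and 4.00% of WT cells. In single tags it was 0 to 31.8% in CCR2KO and 1.9 to 8.1% in WT. The summed level of 12 interstitial macrophage markers in alveolar macrophages was between 171 and 1698 CPM in CCR2KO tags and between 76.6 and 458 CPM in WT tags, with Cd209f at 0 in both, and that of 11 scar-type markers between 9308 and 38234 CPM in CCR2KO and between 5450 and 21366 CPM in WT. Without subcluster 2 the log2 change of Marco was 0.94 (edgeR adjusted p = 0.134). Within subcluster 0 Marco had between 1310 and 1684 CPM in 4 CCR2KO tags and between 300 and 919 CPM in 6 WT tags, with every CCR2KO tag above every WT tag (log2 change 1.31, SE 0.25, edgeR adjusted p = 0.219). There 0 of 10434 genes were called, and the share of all genes without overlap was not counted. In subcluster 1 the means were 1657 ± 792 CPM in CCR2KO and 987 ± 406 CPM in WT (log2 change 0.75, edgeR adjusted p = 0.999).

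**Figure D3:**
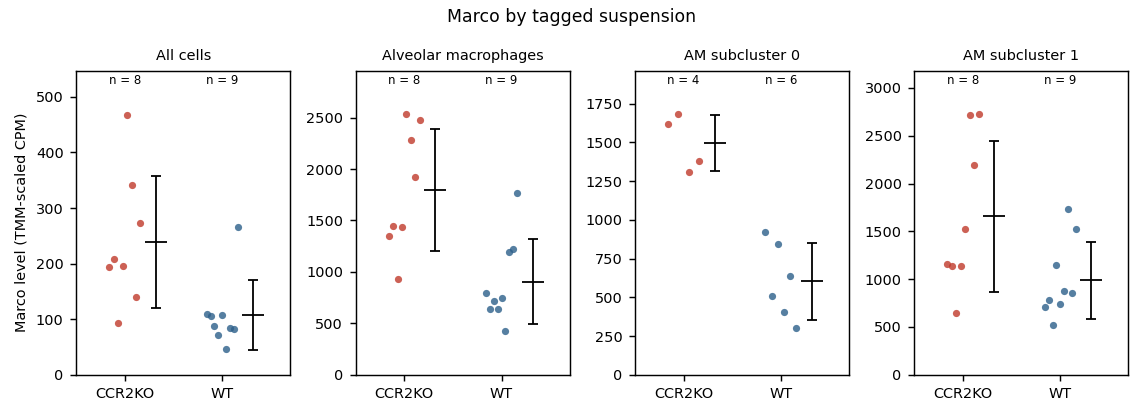
Marco level (TMM-scaled CPM) in each tag, CCR2KO left and WT right, in all cells, in alveolar macrophages (AM) and in their 2 largest subclusters; each point is 1 tag, the bar to its right is the mean with its SD. The CCR2KO mean is above the WT mean in all 4 panels. In subcluster 0 the groups do not overlap, and 0 of 10434 genes were called there.

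Outside alveolar macrophages Marco was close to background and uneven. In scar-type macrophages the 6 CCR2KO tags had between 0 and 896 CPM (median 22.6) and the 9 WT tags between 0.91 and 13.8 CPM (median 3.70). One CCR2KO tag stood far above the rest, and without it the log2 change was 1.98 in place of 4.92 (edgeR adjusted p = 0.0582 with all tags and 0.607 without it).

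Msr1 had a lower mean in CCR2KO scar-type macrophages and a higher one in CCR2KO interstitial macrophages. In scar-type macrophages it had between 126 and 350 CPM in 6 CCR2KO tags (median 250) and between 330 and 809 CPM in 9 WT tags (median 422), and 5 of 6 CCR2KO tags lay below every WT tag. The means were 243 ± 78.1 CPM in CCR2KO and 483 ± 168 CPM in WT (log2 change -0.98, SE 0.26, edgeR adjusted p = 0.146). In interstitial macrophages it had between 400 and 817 CPM in CCR2KO tags (median 591) and between 295 and 655 CPM in WT tags (median 459), with means of 617 ± 142 and 490 ± 117 CPM (log2 change 0.33, SE 0.16, edgeR adjusted p = 0.649).

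Neither change passed the test alone, except that with stricter cell filters Msr1 in interstitial macrophages had a log2 change of 0.69 and was called higher (edgeR adjusted p = 0.0458). The difference between the changes passed. Interstitial minus scar-type macrophages gave 1.41 on the log2 scale (SE 0.22, edgeR interaction test with tags as blocks, adjusted p = 0.0145), and Msr1 was 1 of 3 genes called out of 11812 (0.0254%). With equal cell numbers the difference was 0.81 (adjusted p = 1.00). It missed the threshold with doublet calls kept and no mitochondrial limit (1.60, adjusted p = 0.0718), and without the fifth, sixth or eighth WT tag the adjusted p was 0.0619, 0.0514 or 0.0672. In the scar-type class 11 scar-type markers summed to between 24368 and 39977 CPM in CCR2KO tags and between 10062 and 21765 CPM in WT tags, and 11 classical monocyte markers to between 1860 and 4176 CPM in CCR2KO and between 3566 and 6049 CPM in WT. The part of these markers in the Msr1 difference was not tested.

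In alveolar macrophages Msr1 averaged 436 ± 180 CPM in CCR2KO and 296 ± 136 CPM in WT (log2 change 0.56, edgeR adjusted p = 0.622), and in monocytes 248 ± 150 CPM in CCR2KO and 399 ± 143 CPM in WT (log2 change -0.68, edgeR adjusted p = 0.458). The median log2 change of all genes was 0.0009 in alveolar macrophages and -0.16 in monocytes. The difference between the Msr1 changes of these 2 classes was 1.56 on the log2 scale (SE 0.37, edgeR interaction test, adjusted p = 0.0182, 4.90% of genes called), and was 1.41 with an adjusted p of 0.449 at equal cell numbers. Within nonclassical monocytes Msr1 was 15.1 ± 29.7 CPM in 5 CCR2KO tags, of which 3 were at 0, and 131 ± 113 CPM in 8 WT tags (edgeR adjusted p = 0.657).

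**Figure D4:**
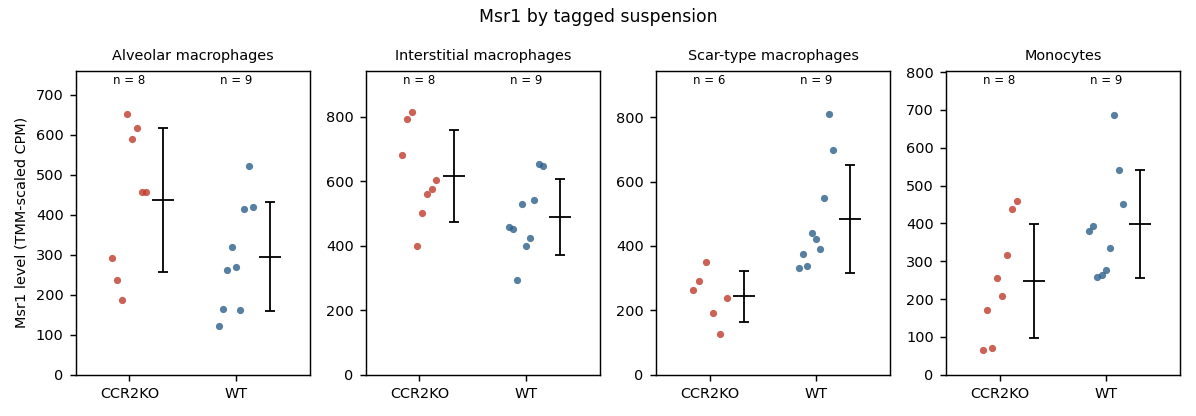
Msr1 level (TMM-scaled CPM) in each tag, CCR2KO left and WT right, in 3 macrophage classes and in monocytes; each point is 1 tag, the bar to its right is the mean with its SD. The CCR2KO mean is above the WT mean in alveolar and interstitial macrophages and below it in scar-type macrophages and monocytes.

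Msr1 was also called lower in activated fibroblasts, at 1.19 ± 0.82 CPM in CCR2KO tags and 10.8 ± 12.3 CPM in WT tags (log2 change -3.17, SE 0.68, edgeR adjusted p = 0.0421, where 0.262% of 12597 genes were called lower). Every CCR2KO tag (0.26 to 2.23 CPM) lay below every WT tag (2.49 to 41.8 CPM), at levels far under those of macrophages. The filter on low counts may have been met through the WT tags alone. Clec7a and Ccr2, genes of monocytes and macrophages, were chosen here after their values were seen. Clec7a was lower in the same fibroblasts, at 6.60 ± 5.35 CPM in CCR2KO and 69.0 ± 56.5 CPM in WT (edgeR adjusted p = 0.0104). Ccr2 had 0.18 ± 0.19 CPM in CCR2KO and 7.51 ± 4.16 CPM in WT (edgeR adjusted p = 0.00641). The genotype fixes the direction of Ccr2 in advance, so nothing about Msr1 is read from it. Clec7a was the 1 gene called of 11 other scavenger and pattern receptors tested there, and 0 of 13 regulators were called. Marco went the other way, at 3.84 ± 3.23 CPM in CCR2KO and 1.27 ± 1.49 CPM in WT (log2 change 1.60, edgeR adjusted p = 0.577). The part of stray reads in these values was not tested. Without WT tag 2, at 41.8 CPM, Msr1 was not called, and it was called in 6 of 17 fits that left out 1 tag. The edgeR call was also lost with no filter on low counts (adjusted p = 0.0711) and with doublet calls kept (0.0765). Equal cell numbers (0.0692) and the tag block term (0.0549) lost it too.

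Stab1 and Cd163 were higher on average in CCR2KO interstitial macrophages without passing the test. Stab1 had between 227 and 566 CPM in CCR2KO tags (median 382) and between 156 and 480 CPM in WT tags (median 209). All 8 CCR2KO tags lay above the WT median (log2 change 0.59, SE 0.24, edgeR adjusted p = 0.486). The sign turned with stricter cell filters (log2 change -0.11) and was near 0 with doublet calls kept and no mitochondrial limit (0.01). Cd163 had between 33.0 and 417 CPM in CCR2KO tags (median 85.0) and between 13.1 and 195 CPM in WT tags (median 48.2), and the groups overlapped (log2 change 1.03, SE 0.52, edgeR adjusted p = 0.668). Without CCR2KO tag 7, the highest, the log2 change of Cd163 was 0.55. In the same cells 11 scar-type markers summed to between 3193 and 22548 CPM in CCR2KO tags and between 4687 and 11776 CPM in WT tags, and 11 classical monocyte markers to between 1513 and 3545 CPM in CCR2KO and between 3154 and 4658 CPM in WT, and their part in these values was not tested.

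In monocytes Scarb2, Stab1 and Mertk had lower means in CCR2KO, and none passed the test alone. The median log2 change of all genes in monocytes was -0.16. Scarb2 had between 0 and 160 CPM in CCR2KO tags (median 64.4) and between 89.7 and 253 CPM in WT tags (median 140), and 7 of 8 CCR2KO tags lay below every WT tag (log2 change -1.37, SE 0.58, edgeR adjusted p = 0.297). Stab1 had at most 23.1 CPM in CCR2KO monocytes, with 4 of 8 tags at 0, and between 2.54 and 63.8 CPM in WT monocytes (log2 change -2.65, edgeR adjusted p = 0.258). Mertk was at 0 in 7 of 8 CCR2KO tags and had between 0.35 and 61.1 CPM in WT tags (edgeR adjusted p = 0.120). After thinning, 1 of 193 CCR2KO monocytes and 22 of 1192 WT monocytes held a Mertk read (0.518% and 1.85%), so a tag with few CCR2KO monocytes can be at 0 by its number of cells, and no change of Mertk or Stab1 in monocytes is read from these values. The change of Scarb2 differed between interstitial macrophages and monocytes by 2.05 on the log2 scale (edgeR interaction test, adjusted p = 0.0478, 3.35% of 11155 genes called), a test that was not repeated under other settings.

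In lymphatic endothelium, a class in which Stab1 peaked, its log2 change was -0.26 (edgeR adjusted p = 0.9995). Mertk in alveolar macrophages had between 64.4 and 199 CPM in CCR2KO tags (median 145) and between 99.7 and 229 CPM in WT tags (median 165), a log2 change of -0.22 (SE 0.22, edgeR adjusted p = 0.867). Scarb1 in general capillary cells averaged 420 ± 106 CPM in CCR2KO and 320 ± 43.2 CPM in WT (log2 change 0.39, SE 0.14, edgeR adjusted p = 0.386), and 5 of 8 CCR2KO tags lay above every WT tag. Scarb2 in alveolar macrophages averaged 287 ± 34.3 CPM in CCR2KO and 334 ± 45.8 CPM in WT (log2 change -0.22, SE 0.10, edgeR adjusted p = 0.590).

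Among alveolar macrophages the receptors varied with the number of the tag, in both libraries, as the plot by tag number shows. No source ties tags to days, and equal numbers in the 2 libraries need not mean equal days, so the blocks are described by range and median and are not tested. Mertk was lowest in the last block: tags 7 and 8 of CCR2KO had 64.4 and 76.8 CPM, against 137 to 199 CPM in tags 1 to 6, and tags 7 to 9 of WT had 99.7 to 116 CPM, against 161 to 229 CPM in tags 1 to 6. Every tag of the last block lay below every other tag of its own library. Scarb1 ran the other way in WT, with 53.4 to 75.6 CPM in tags 1 to 3 (median 61.1), 84.0 to 115 in tags 4 to 6 (median 108) and 134 to 186 in tags 7 to 9 (median 150).

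In CCR2KO Scarb1 had 61.2 to 113 CPM in tags 1 to 3 (median 75.3), 136 to 145 in tags 4 to 6 (median 142) and 120 to 164 in tags 7 and 8. Msr1 was low in tags 1 to 3 of both libraries, at 187 to 291 CPM in CCR2KO and 123 to 261 CPM in WT. It was high in tags 7 onward in both, at 456 to 458 CPM in CCR2KO and 415 to 522 CPM in WT. Tags 4 to 6 had 590 to 653 CPM of Msr1 in CCR2KO and 163 to 320 CPM in WT.

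Marco and Cd36 were also farthest apart in tags 4 to 6. There Marco had 1438 to 2535 CPM in CCR2KO and 428 to 748 CPM in WT, and Cd36 527 to 630 CPM in CCR2KO and 233 to 279 CPM in WT, with no overlap in either. Marco did not overlap in tags 1 to 3 either (936 to 1443 CPM in CCR2KO and 638 to 795 CPM in WT). Nor did Cd36 overlap there (347.8 to 441.5 CPM in CCR2KO and 258.0 to 346.1 CPM in WT). In the last block Marco had 1925 and 2476 CPM in CCR2KO and 1190 to 1767 CPM in WT, again without overlap. Cd36 overlapped in that block (185 and 363 CPM in CCR2KO and 209 to 377 CPM in WT). The share of all genes without overlap in the same tags was not counted. With so few tags in a block, the lack of overlap is a description only. Stab1, near background in alveolar macrophages of WT (0.22 to 6.10 CPM over all tags), had 15.3 to 22.9 CPM in tags 4 to 6 of CCR2KO and at most 2.66 CPM in its other tags.

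**Figure D5:**
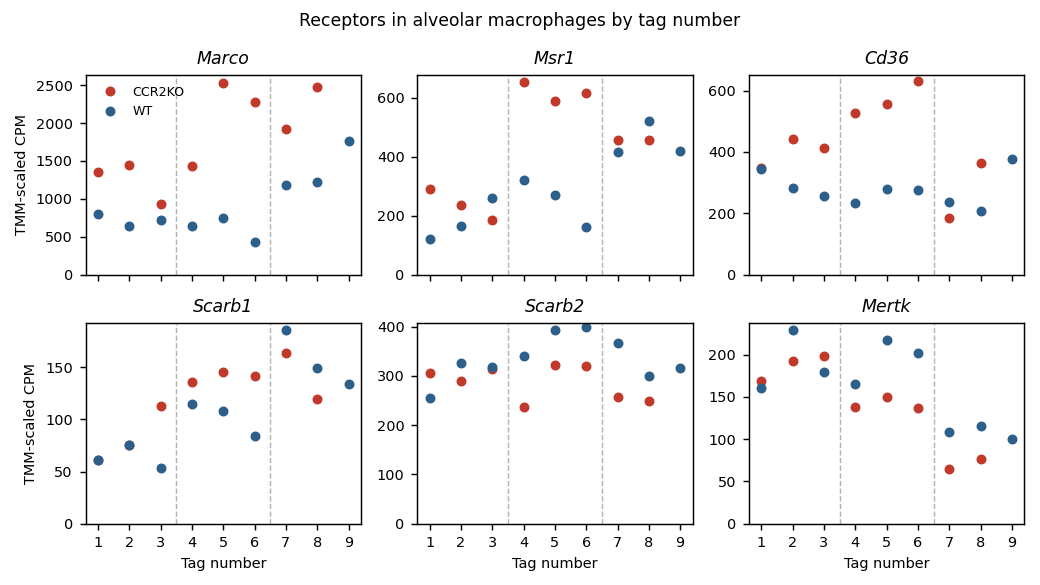
Level of 6 receptors (TMM-scaled CPM) in alveolar macrophages against tag number, CCR2KO in red and WT in blue; each point is 1 tag and dashed lines part tags 1 to 3, 4 to 6 and 7 onward. Mertk is lowest in the last block of both libraries, and Marco, Msr1 and Cd36 of CCR2KO lie above WT without overlap in tags 4 to 6. The share of all genes without overlap in those tags was not counted.

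Other genes of these pathways were read from 4 lists. Among 18 other scavenger and pattern receptors, 17 were tested in all cells, with 0 higher and 4 lower in CCR2KO, where 5.02% of all genes were called higher and 6.47% lower. Their median log2 change was 0.0084, and that of all genes 0.013. The 4 were Clec7a, the receptor for fungal glucans (405 ± 124 CPM in CCR2KO and 853 ± 335 CPM in WT, log2 change -1.07), Cd14, which passes lipopolysaccharide on to TLR4 (-0.65), Fcgr1, a receptor for immunoglobulin G (-1.53), and Cxcl16, a chemokine that also binds oxidised lipoprotein (-0.51), with edgeR adjusted p between 0.000125 and 0.0345. Of 15 regulators, 1 was higher and 5 were lower (median -0.16), against the same 5.02% and 6.47% of all genes. The lower ones included Csf1r, the receptor for a macrophage growth factor (68.0 ± 22.4 CPM in CCR2KO and 159 ± 43.0 CPM in WT, log2 change -1.22), and Spi1, which encodes PU.1 (62.9 ± 15.7 and 129 ± 25.3 CPM, log2 change -1.03), and the higher one was Hp, haptoglobin, whose complexes CD163 takes up (986 ± 152 CPM in CCR2KO and 572 ± 124 CPM in WT, log2 change 0.78, edgeR adjusted p = 0.000383). Hp is also among the classical monocyte markers used here. Within classes it was called higher in alveolar fibroblasts alone, where 0.368% of 11670 genes were called higher. All-cell sums do not part a change in cell numbers from a change in RNA per cell. In alveolar, interstitial and scar-type macrophages 0 of the tested genes of these receptor and regulator lists were called. In monocytes only Clec7a and Maf were called, both lower.

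Of 19 genes of lipoprotein uptake and lipid efflux, 1 was higher and 2 were lower in all cells (median -0.12), close to the 11.5% of all genes called in either direction: Npc2, which moves cholesterol out of lysosomes (0.40), Pltp, a phospholipid transfer protein (-0.30), and Nr1h2, a sterol-sensing nuclear receptor (-0.23). Of 17 genes for the uptake of dying cells, 16 were tested and 1 was higher, also close to that share: Mfge8, a bridge between phosphatidylserine and integrins (179 ± 32.1 CPM in CCR2KO and 113 ± 20.6 CPM in WT, log2 change 0.66, edgeR adjusted p = 0.00085). Mfge8 was also higher in scar-type macrophages (204 ± 101 and 45.0 ± 21.5 CPM, log2 change 2.18, edgeR adjusted p = 0.011) and in interstitial macrophages (211 ± 212 and 42.3 ± 20.0 CPM, log2 change 2.32, edgeR adjusted p = 0.0143), against 0.0585% and 0.162% of all genes called higher there.

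In scar-type macrophages Lpl, lipoprotein lipase, was higher (1900 ± 809 CPM in CCR2KO and 664 ± 285 CPM in WT, log2 change 1.51, edgeR adjusted p = 0.0193). Apoe, the ligand with which lipoproteins are taken up, was lower in them (390 ± 239 CPM in CCR2KO and 1348 ± 377 CPM in WT, log2 change -1.79, edgeR adjusted p = 0.00847, with 0.222% of genes called lower). In monocytes Npc2 (log2 change -0.79), Clec7a (-0.66) and Maf (-3.95) were lower, with edgeR adjusted p between 0.00124 and 0.0276, in a class where 2.96% of genes were called lower. The median log2 change of all genes in that class was -0.16. In alveolar macrophages 54 listed genes were tested, 10 had an unadjusted p under 0.05, and the lowest edgeR adjusted p was 0.160, where 0.400% of all genes were called.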

How the data were processed

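The values deposited by the authors are whole-number read counts per gene and cell, 1 table per genotype, with the hashtag of each cell in its column name. Reads were processed with cutadapt 2.10, Bowtie2 2.4.2 and R 3.6.3 against GRCm38, per the submitters' processing notes; the counting rule and annotation are not given in the sources used here. Of nonzero entries 21.7% equal 1 and the median is 10, so they are treated as reads and not as molecules, and 1213 columns named as doublets or without a tag were not used. A gene missing from 1 table was given 0.

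Cells needed at least 200 genes and no more than 25% mitochondrial reads, and 336 CCR2KO and 370 WT cells called doublets by Scrublet (expected rate 0.06) were removed. Clustering used scanpy 1.11.5 with leidenalg 0.10.2: 2000 variable genes without the 8 receptors, Ccr2 and mitochondrial genes, 40 components, 20 neighbours and resolution 1.5. A cluster took a name from at least 3 markers among its top 100 genes by fold, with a margin of 1.5. Subclusters used resolution 0.5 and 20 components. Counts were summed per tag and class, with at least 10 cells per tag and 3 tags per genotype, and tested across all genes with the quasi-likelihood test of edgeR 4.0.16 (Benjamini-Hochberg adjustment, threshold 0.05) under R 4.3.3. Differences of log2 change between classes were tested in 1 model over both classes. Shares of cells with a read used cells thinned to 5000 reads. Genes of like pattern had at least 50 CPM in some class and used log2(CPM + 1).

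The named genes were the 8 receptors, the 3 genes most like each and, of 4 lists, up to 4 called genes with the smallest p. One gene that this rule names is not reported here. The members and lists were chosen with earlier results of these data known. On simulated data, of 100 genes changed 2-fold and 100 changed 4-fold, 49% and 83% were recovered in all cells, 31% and 58% in alveolar macrophages, and 1% and 12% in monocytes. Alternatives were DESeq2 1.42.0, other filters on genes and cells, equal cell numbers, a replicate block, a tag block term and leaving out each tag.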

Additional observations from a re-analysis of the deposited data

Results flagged for a closer look

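Each group of 4 to 10 tags was checked for a tag standing far from the others, and 10 of 88 groups had one. For normally spread values chance gives about 1 of 20 groups. The values were CPM without a log, and each tag found was the highest of its group. That rate may therefore not hold here, and no excess is read from the count. Marco in all cells had 266 CPM in WT tag 9, and the nearest WT tag had 109 CPM. In interstitial macrophages the same WT tag was apart for Marco (41.3 CPM, nearest 18.5) and for Cd36 (899 CPM, nearest 434), and CCR2KO tag 7 was apart for Cd163 (417 CPM, nearest 214). In scar-type macrophages CCR2KO tag 6 was apart for Marco (896 CPM, nearest 61.9) and CCR2KO tag 3 for Scarb1 (54.0 CPM, nearest 8.66). In monocytes CCR2KO tag 2 was apart for Scarb2 (160 CPM, nearest 74.5) and CCR2KO tag 3 for Stab1 (23.1 CPM, nearest 8.23). In nonclassical monocytes CCR2KO tag 6 was apart for Msr1 (67.9 CPM, nearest 7.52), and in activated fibroblasts WT tag 2 was apart for Msr1 (41.8 CPM, nearest 15.9).

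Of 45 tests of whether the genotype change of a receptor differed between a pair of classes, 7 passed the threshold of the edgeR interaction test. Alveolar macrophages minus monocytes gave 1.56 for Msr1, -1.48 for Cd36 and 3.82 for Mertk on the log2 scale. Interstitial macrophages minus monocytes gave 2.05 for Scarb2 (adjusted p = 0.0478), 3.85 for Stab1 (adjusted p = 0.0339) and 4.60 for Mertk (adjusted p = 0.0428), where 3.35% of all genes were called. Mertk was at 0 in 7 of 8 and Stab1 in 4 of 8 CCR2KO monocyte tags, so their fitted changes depend on the prior count and on the number of cells, and the differences from interstitial macrophages were not repeated under other settings. The Mertk difference from alveolar macrophages passed in 5 of 17 fits without 1 tag and missed the threshold with the strict cell filter, with doublet calls kept and at equal cell numbers. Interstitial minus scar-type macrophages gave 1.41 for Msr1.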

How the results depend on the processing

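The cause of each shift here was not tested; a tag block term, alveolar macrophages without subcluster 2 and repeats of the class differences were chosen after seeing the data. Over all cells 2207 genes were called by edgeR, against 3403 with DESeq2, 664 with a mean of at least 100 CPM and 3768 with the tag block term; leaving out 1 tag gave 1831 to 2387. Of the 8 receptors 1 was called, against 4 with the tag block term and 1 to 2 without 1 tag. Replicate numbers did not pair the samples (correlations of equal numbers from -0.04 to 0.69), and 3 of 8 CCR2KO tags correlated best with the WT tag of their number. CCR2KO tag 4 correlated best with WT tag 9, and every other CCR2KO tag with a WT tag of its own block of tag numbers. With the replicate block 4 receptors were called by edgeR in all cells: Marco, and lower Msr1 (adjusted p = 0.0494), Cd36 (0.046) and Mertk (0.0134). The block also called Marco in alveolar macrophages (0.0124). Within classes 2 receptor tests were called, against 8 with DESeq2, 1 with no filter on low counts, 1 with doublet calls kept and no mitochondrial limit, 0 at equal cell numbers, 3 with the strict cell filter (Msr1 in interstitial macrophages added) and 1 to 4 without 1 tag; in the edgeR fit 20 of 100 had an unadjusted p under 0.05. Marco in all cells ranged from 0.95 to 1.46 without 1 tag. Cd36 in monocytes was 1.97 at equal cell numbers, and 33.1% of WT monocytes held a Cd36 read when not thinned, against 18.0% thinned.

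The class differences at equal cell numbers were 1.41 for Msr1, -1.79 for Cd36 and 3.80 for Mertk between alveolar macrophages and monocytes, and 0.81 for Msr1 between interstitial and scar-type macrophages, all short of the threshold (adjusted p between 0.419 and 1.00). Mertk was 3.07 with the strict cell filter (adjusted p = 0.213) and 2.99 with doublet calls kept (0.219), where the second Msr1 difference was 1.60 (0.0718), so these calls were lost too. Without 1 tag they ranged from 1.40 to 1.94 (Msr1), -1.61 to -1.10 (Cd36), 3.51 to 8.44 (Mertk, past the threshold in 5 of 17) and 1.28 to 1.47 (the second Msr1 difference).

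Some changes that had not passed the threshold turned their sign, and none passed it after the turn. In interstitial macrophages Scarb1 was 0.22 with doublet calls kept and 0.46 with the strict filter, Scarb2 0.03 (DESeq2), 0.04 (at least 100 CPM), 0.32 (doublet calls kept), 0.37 (strict) and -0.16 to 0.13 without 1 tag, Stab1 -0.11 (strict), and Mertk 0.01 (DESeq2), 0.11 (replicate block), 0.42 (doublet calls kept), 0.34 (strict) and -0.13 to 0.08 without 1 tag. In scar-type macrophages Stab1 was 0.43 (strict), 0.75 (equal cell numbers), 0.23 (tag block term) and -0.49 to 0.06 without 1 tag, and Mertk -0.36 (replicate block) and -0.51 (strict). Scarb1 in monocytes was -0.10 (no filter), -0.37 (replicate block), -0.05 (strict), -0.19 (tag block term) and -0.25 to 0.24 without 1 tag. Cd36 was 0.01 in alveolar type 2 cells with no filter, doublet calls kept or the tag block term and -0.10 to 0.03 without 1 tag, and -0.08 to 0.00 in general capillary cells without 1 tag.

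Classes of few cells limit these tests: CCR2KO monocytes and scar-type macrophages had 198 and 155 cells.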
